A study of Mus musculus with 9 samples.

Results

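Gata1, Gata2, Klf1, Tal1, Nfe2, Gfi1b, Zfpm1, Lmo2 and Ldb1, nuclear factors of the red cell lineage, were followed through every RNA-seq library of CD11c+ cells sorted from mouse spleens. These 9 genes were chosen by name out of the 54532 genes listed, and all 9 were found. They were picked with their levels in T-DCs already known, so those levels are given as a description and carry no test. N-mDCs were mature conventional dendritic cells (cDCs) of normal mice, T-DCs were CD11c+MHCIIlo cells of leukemic mice and T-mDCs were mature cDCs of leukemic mice, with 3 libraries in each of the 3 groups. T-ALL, a leukemia of the T lineage, had been started by GFP+ cells carrying the intracellular domain of Notch1 (MSCV-ICN1-IRES-GFP) that were transplanted without irradiation into female C57BL/6J or C57B6.SJL mice, so the host kept its own blood-forming cells. The labels give no treatment for normal mice, and no age, strain or number of animals per library for any group. Red cells had been lysed with ammonium chloride, CD11c+ cells enriched on microbeads and the populations then sorted by flow cytometry.

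Red cell precursors are set apart by a small circuit of transcription factors. Gata1 takes over from Gata2 on many of the same GATA sites as a progenitor commits to the lineage, with Zfpm1 (FOG1) as a cofactor of both. Tal1 binds DNA with an E protein and is joined to GATA factors by the bridging proteins Lmo2 and Ldb1, Klf1 binds CACCC sequences of the globin and other red cell genes, Nfe2 works as a dimer with a small Maf protein, and Gfi1b is a repressor that recruits histone-modifying complexes. Dendritic cells are not known for most of this circuit, although Lmo2 and Ldb1 are used by many blood cells.

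GATA and CACCC sequences are the letters that 2 of these factor classes read, so promoter windows of members are shown with matches to a GATA motif and a CACCC motif, both defined below the windows, in capitals. RefSeq (GRCm38.p6) gave a promoter for 7 of the 9 members, in 11 windows of 250 bases before a transcription start. Each of the 3 windows below runs 5′ to 3′ on the strand of its gene, and capitals mark either motif on either strand. The Klf1 and Gfi1b windows are shown because they hold a GATA motif, and the Gata1 window because it holds CACCC motifs alone.
Klf1, chr8:84901732-84901981, plus strand: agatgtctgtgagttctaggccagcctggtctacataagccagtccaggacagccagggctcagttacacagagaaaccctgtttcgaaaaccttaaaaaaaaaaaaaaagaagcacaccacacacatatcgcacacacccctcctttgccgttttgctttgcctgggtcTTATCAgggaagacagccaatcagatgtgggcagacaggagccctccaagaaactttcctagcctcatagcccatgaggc
Gfi1b, chr2:28621983-28622232, minus strand: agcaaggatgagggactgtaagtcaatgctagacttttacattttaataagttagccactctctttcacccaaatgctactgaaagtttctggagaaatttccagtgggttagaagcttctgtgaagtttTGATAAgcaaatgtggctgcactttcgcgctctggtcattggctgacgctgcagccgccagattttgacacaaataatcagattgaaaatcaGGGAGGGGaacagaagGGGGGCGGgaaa
Gata1, chrX:7967911-7968160, minus strand: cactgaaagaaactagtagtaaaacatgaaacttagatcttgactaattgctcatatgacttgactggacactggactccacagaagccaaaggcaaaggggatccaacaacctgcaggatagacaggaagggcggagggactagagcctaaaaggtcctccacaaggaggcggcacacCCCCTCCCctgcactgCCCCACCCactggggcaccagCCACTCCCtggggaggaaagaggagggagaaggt
The GATA motif was searched as GATA with A or T before it and A or G after it, and the CACCC motif as CCNCNCCC, each on both strands and with overlaps counted. A match to CCNCNCCC need not hold the letters CACCC, and CACCC alone is not a match. The Klf1 and Gfi1b windows each hold CACCC in lower case for that reason. A GATA motif stood in 4 of the 11 windows, 80 bases before the start in Klf1 and 120 bases before it in Gfi1b, with the others in Tal1 and Ldb1. Over all 32841 windows of 250 bases in the table, 26.5% held it. A CACCC motif stood in 9 of the 11 windows, against 45.9% of all windows, and in the Gata1 window it lay 71, 55 and 34 bases before the start. An E-box, CANNTG, which Tal1 binds with its partner, stood in 4 of the 11, against 66.2% of all windows. None of the 11 held the NF-E2 letters TGANTCA, which 6.75% of all windows held. These matches are letters in a window and were not compared with any binding data.

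The authors deposited FPKM, a level per gene length and library size. FPKM times gene length gave whole reads to within 5.59e-05 of a read, so reads behind each value are known, with 15360815 to 18440913 reads on genes per library. Gene positions below are those of the deposited table, on mm10 (GRCm38). On a gene of 1 kilobase, 1 read made 0.0517 to 0.0659 FPKM. T-DC libraries 2 and 3 stood apart from T-DC library 1 in red cell RNA, with hemoglobin reads at 3.82% and 3.0% of all reads against 0.0422%. T-mDC libraries 2 and 3 were closer to each other than any other pair of one group, with a chi-square per gene of 1.80 against 5.45 to 19.0, and both are kept and also given as 1 sample. The 9 libraries may be technical or biological replicates, since no source says that they came from separate mice, and p-values then measure only the spread between these libraries. For bulk RNA, fewer cells of a type and less RNA per cell cannot be told apart.

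Gata1 (chromosome X, 7959260 to 7978071), the defining GATA factor of red cell precursors, was read at 1.24, 107.8 and 123.8 FPKM in T-DC libraries 1, 2 and 3. The N-mDC libraries held 0.131, 1.83 and 0.226 FPKM and the T-mDC libraries 0.348, 0.0849 and 0.0669 FPKM. Levels in T-DC libraries 2 and 3 were 87.2 and 100.1 times the level in T-DC library 1, which itself lay within the range of N-mDCs and above all T-mDCs. These FPKM rest on 54, 4073 and 4583 reads in T-DCs, on 5 to 72 reads in N-mDCs and on 3 to 16 reads in T-mDCs.

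Gata2 (chromosome 6, 88193891 to 88207032), the GATA factor of earlier progenitors and of mast cells and basophils, did not share that pattern. It was read at 0.0310, 0.885 and 2.57 FPKM in T-DCs, at 0.0474, 0.529 and 1.17 FPKM in N-mDCs, and at 0.0491, 0 and 0 FPKM in T-mDCs. Only 2 libraries reached 1 FPKM, T-DC library 3 and N-mDC library 3, so the ranges of T-DCs and N-mDCs overlap and the gene did not pass the filter for testing. A count of 0 in T-mDC libraries 2 and 3 allows up to 3 reads, which is 0.0288 and 0.0302 FPKM. Gata1 stood at 39.9, 121.9 and 48.1 times the FPKM of Gata2 in T-DC libraries 1, 2 and 3, at 2.77, 3.47 and 0.193 times in the N-mDC libraries, and at 7.09 times in T-mDC library 1. The T-DC ratios therefore lay above all the N-mDC ratios, although T-DC library 1 gives its ratio from 3 reads of Gata2. N-mDC library 1 gives its ratio from 5 reads of Gata1 and 4 of Gata2, and T-mDC library 1 from 16 and 5. The 12 mast cell and basophil markers, which include Gata2, did not share 1 order among N-mDCs. Ms4a2, Fcer1a, Cpa3, Mcpt8, Hdc, Il1rl1 and Tpsb2 were highest in N-mDC library 3, as Gata2 was. Cma1, Mcpt4 and Prss34 were highest in N-mDC library 2 and Kit in N-mDC library 1. All of these markers but Hdc, Cma1 and Mcpt4 were higher in T-DC library 3 than in T-DC library 2, as Gata2 was. The part of mast cells and basophils in the Gata2 level was not tested.

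Zfpm1 (chromosome 8, 122282141 to 122337251), the GATA cofactor, was read at 3.28, 179.7 and 231.3 FPKM in T-DCs. N-mDCs held 3.10, 6.67 and 5.55 FPKM and T-mDCs 3.31, 1.60 and 1.24 FPKM. T-DC library 1 fell inside the range of N-mDCs and just under T-mDC library 1, so for Zfpm1 the T-DCs overlapped with both mature groups.

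**Figure D1:**
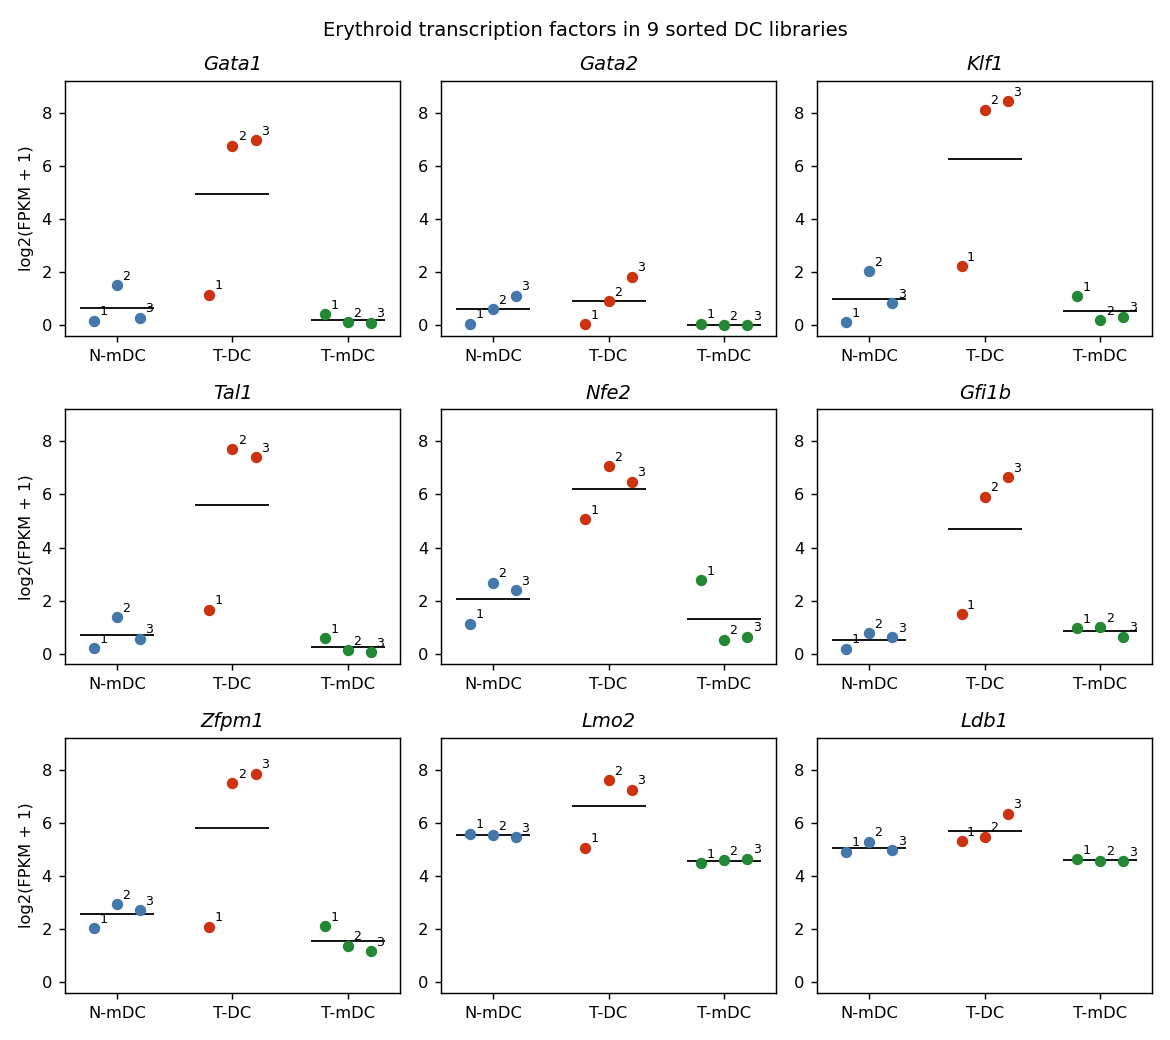
Level of each transcription factor as log2(FPKM + 1) on the vertical axis in the 3 libraries of each group, with each point a library, its number beside it and the horizontal line the group mean. T-DC libraries 2 and 3 stand above the other 7 libraries for 8 of the 9 genes, and T-DC library 1 lies near the mature groups for all but Nfe2.

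Klf1 (chromosome 8, 84901928 to 84905291), the factor named for its erythroid role, had the highest level of the 9 in any library, with 3.65, 278.2 and 348.1 FPKM in T-DC libraries 1, 2 and 3. It was read at 0.0836, 3.09 and 0.792 FPKM among N-mDCs and at 1.14, 0.135 and 0.249 FPKM in T-mDCs. Every T-DC library stood above every mature library, but T-DC library 1 was only just above N-mDC library 2. The lower of T-DC libraries 2 and 3 was 76.3 times the highest of the other 7 libraries.

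Tal1 (chromosome 4, 115056426 to 115071755), the basic helix-loop-helix factor of the complex, was read at 2.17, 207.8 and 168.3 FPKM in T-DCs. N-mDCs held 0.161, 1.62 and 0.491 FPKM and T-mDCs 0.508, 0.106 and 0.0372 FPKM. The groups did not overlap, and again N-mDC library 2 was the mature library nearest to T-DC library 1. Tal1 and Lyl1, its close relative, differed among T-DCs, since Lyl1 was at 112.5, 145.9 and 97.8 FPKM and T-DC library 1 was as high as the others.

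Lmo2 (chromosome 2, 103957986 to 103981878), the bridging protein, was abundant in every library, at 32.7, 194.8 and 151.4 FPKM in T-DCs. N-mDCs held 47.1, 45.6 and 43.4 FPKM and T-mDCs 21.4, 23.2 and 24.1 FPKM. T-DC library 1 was thus below all N-mDC libraries and above all T-mDC libraries, while T-DC libraries 2 and 3 stood above both. Ldb1 (chromosome 19, 46032593 to 46045214), which holds Lmo2 complexes together by dimerizing, was read at 38.8, 43.8 and 80.2 FPKM in T-DCs, at 29.3, 38.1 and 30.4 FPKM among N-mDCs and at 23.8, 22.9 and 22.7 FPKM in T-mDCs. For Ldb1 the T-DC libraries were above all mature libraries, yet T-DC libraries 1 and 2 lay within 1.13-fold of each other, the smallest gap of the 9. Lmo2 overlaps an antisense gene, 4931422A03Rik, at 0.349 to 3.87 FPKM, and Ldb1 overlaps the antisense gene Pprc1 at 3.98 to 10.8 FPKM. The counting is not stated to use strand, so reads in the shared stretches could go to either gene.

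Nfe2 (chromosome 15, 103248212 to 103258403), the larger subunit of NF-E2, was the member with the clearest signal in T-DC library 1. It was read at 32.6, 133.6 and 88.0 FPKM in T-DCs, at 1.20, 5.38 and 4.28 FPKM among N-mDCs and at 5.85, 0.450 and 0.564 FPKM in T-mDCs. All T-DC libraries were above all mature libraries, and T-DC library 2 was 4.09 times T-DC library 1, compared with 87.2 times for Gata1. Nfe2 is also expressed by megakaryocytes and granulocytes. The 11 megakaryocyte markers summed to 30.1 to 35.4 FPKM in T-DCs, 7.54 to 27.3 FPKM among N-mDCs and 7.95 to 8.94 FPKM among T-mDCs, with Itgb3 the most abundant and Gp1bb at 0 in all libraries. In T-DC library 1 Itgb3 gave 25.3 of that sum, while Pf4, Ppbp and Itga2b were at 0.310, 0.155 and 0.348 FPKM and Gp9 was at 0. The 7 neutrophil markers summed to 13.1 FPKM in T-DC library 1, below all N-mDC libraries. The part of other cell types in the Nfe2 level was not tested.

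Gfi1b (chromosome 2, 28609450 to 28621982), the repressor, was read at 1.83, 59.4 and 100.01 FPKM in T-DCs, at 0.140, 0.713 and 0.542 FPKM among N-mDCs and at 0.955, 0.990 and 0.565 FPKM in T-mDCs. No mature library reached the lowest T-DC library. T-DC libraries 2 and 3 were 32.5 and 54.6 times T-DC library 1.

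Set side by side, 6 of the 9 members had at least 10 times the FPKM of T-DC library 1 in both T-DC libraries 2 and 3, namely Gata1, Gata2, Klf1, Tal1, Gfi1b and Zfpm1. Over the 12746 genes with at least 1 FPKM in at least 3 libraries, 3.57% did so. Gata2 is outside those genes, and its level in T-DC library 1 rests on 3 reads. Every T-DC library was above every N-mDC library for 5 of the 9 members (Klf1, Tal1, Nfe2, Gfi1b and Ldb1), against 16.0% of those genes, and above every T-mDC library for those and Gata1 and Lmo2, 7 in all, against 16.8%. Nothing is read from these counts, because the members were chosen on these values. Just inside and just outside a 10-fold gap between T-DC libraries 1 and 2 stood Gata2 at 28.5 times and Lmo2 at 5.96 times. On the log2(FPKM + 1) scale, which understates the change of low genes, the fitted differences between T-DCs and N-mDCs ran from 0.65 for Ldb1 to 5.27 for Klf1, and between T-DCs and T-mDCs from 1.12 to 5.73 for the same genes. With T-DC library 1 as the only T-DC library, the difference from N-mDCs was 3.0 for Nfe2, 1.22 for Klf1, 0.97 for Gfi1b, 0.94 for Tal1 and 0.50 for Gata1, and it turned to -0.46 for both Zfpm1 and Lmo2.

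T-DC libraries 2 and 3 were not scaled copies of each other in these genes. Relative to T-DC library 2, T-DC library 3 held 2.91 times the Gata2, 1.83 times the Ldb1, 1.68 times the Gfi1b, 1.29 times the Zfpm1, 1.25 times the Klf1 and 1.15 times the Gata1. It held 0.810 times the Tal1, 0.777 times the Lmo2 and 0.659 times the Nfe2. Among target genes the median ratio was 0.720 over 4 globin genes, of which 1, Hba-a2, was at 3.62, 0.694 over 15 membrane and skeleton genes, 0.751 over 10 other red cell genes and 0.843 over 9 heme synthesis genes. It was 1.21 over 5 receptor and iron genes, of which 3 were above 1. The median over the 12746 genes was 0.958. With 1 library on each side, these ratios have no replicate check.

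Since hemoglobin RNA differed so widely among libraries, members were also expressed as a percent of the summed FPKM of Hba-a1, Hba-a2, Hbb-bs and Hbb-bt in the same library, a scale chosen after the values were seen and given with no test. Klf1 came to 0.0865%, 0.0585% and 0.170% among N-mDCs, to 0.651%, 0.515% and 0.884% in T-DCs and to 0.681%, 0.655% and 1.84% among T-mDCs. On this scale T-DC library 1 lay between T-DC libraries 2 and 3, and all 6 libraries of leukemic mice were above all 3 libraries of normal mice. Gata1 did the same, at 0.0348% to 0.136% in the N-mDC, 0.199% to 0.315% in the T-DC and 0.207% to 0.496% in the T-mDC libraries. Tal1 did as well, at 0.0307% to 0.166%, 0.384% to 0.427% and 0.276% to 0.515%. The other 6 members, Gata2, Nfe2, Gfi1b, Zfpm1, Lmo2 and Ldb1, did not separate on this scale, Lmo2 reaching 48.8% in N-mDCs against as little as 0.360% in T-DCs. Summed hemoglobin itself ran from 13.5 FPKM in T-mDC library 3 to 54051 FPKM in T-DC library 2. The share of all genes that separate on this scale was not counted, so nothing is read from the 3 members that did. Alas2, the first enzyme of heme synthesis in red cells, overlapped too, at 0.864% to 1.19%, 1.21% to 2.0% and 0.730% to 1.51%. Separation was not particular to the factors, since Slc4a1, the anion exchanger of the red cell membrane, showed it as well. N-mDC library 3, with the most Slc4a1 relative to hemoglobin among N-mDCs, held 9.13 FPKM beside 465.1 FPKM of hemoglobin. T-mDC library 2, the lowest of the leukemic libraries, held 0.465 FPKM beside 20.7 FPKM. The remaining target genes were not put on this scale. Relative to Slc4a1, Klf1 still separated the libraries, at 7.80% to 12.0% in N-mDCs and 14.8% to 63.9% in the 6 libraries of leukemic mice. Gata1 and Tal1 overlapped there. T-mDC libraries 2 and 3 rest on 3 to 9 reads of each of these 3 factors. N-mDC library 1 rests on 5, 2 and 11 reads of Gata1, Klf1 and Tal1, and N-mDC library 3 on 10 reads of Gata1.

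**Figure D2:**
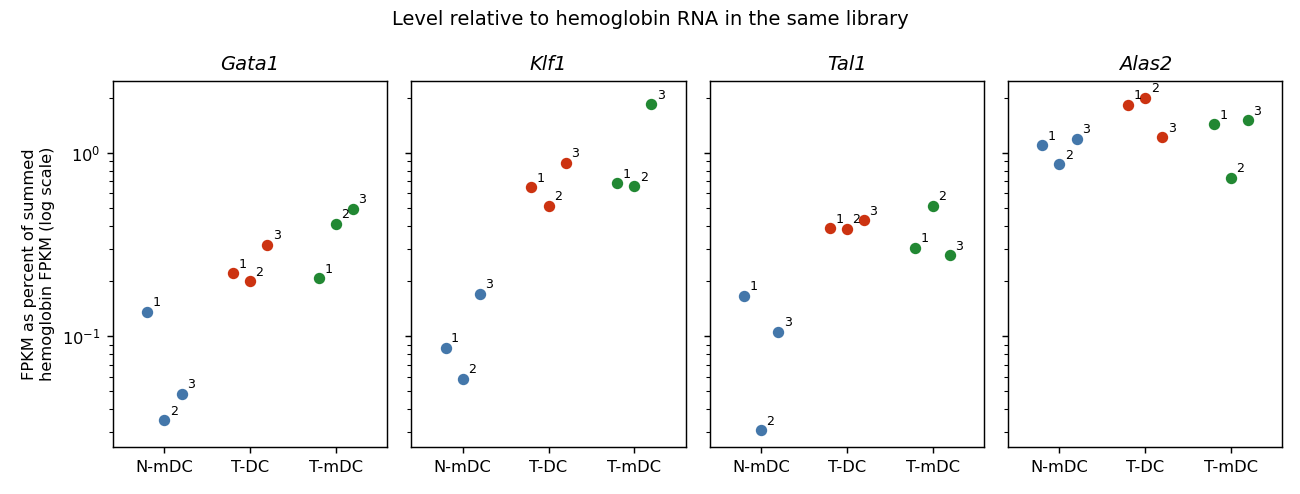
FPKM of Gata1, Klf1, Tal1 and Alas2 as percent of the summed hemoglobin FPKM of the same library, on a log scale, with each point a library and its number beside it. For the 3 factors the N-mDC libraries lie below all T-DC and T-mDC libraries, with Klf1 at no more than 0.170% in N-mDCs and at least 0.515% elsewhere. Alas2, the only target gene shown, overlaps.

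Mature cDCs of leukemic and normal mice could be tested, because the choice of members did not turn on that contrast. In limma with all 9 libraries, none of the 8 members tested differed between T-mDCs and N-mDCs, where 2.21% of all 12746 genes did. Gfi1b is among the 8 through its T-DC libraries only, since no mature library reached 1 FPKM. Gata1, Tal1 and Klf1 also needed their T-DC libraries to pass the filter. Of the mature libraries, only N-mDC library 2 reached 1 FPKM for Gata1 and Tal1, and only N-mDC library 2 and T-mDC library 1 for Klf1. For these genes a lack of calls between mature groups says little. At an unadjusted p under 0.05 the count was also 0 of 8, and limma voom on the recovered reads gave 0 of 8 at either threshold. With one estimate of spread for all groups, which takes in the spread of T-DCs, the 95% intervals of Klf1, Tal1 and Gata1 reached past 2 log2 units on either side of 0.

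Lmo2 was the member for which that choice mattered. The mean level was 45.3 ± 1.90 FPKM for N-mDCs and 22.9 ± 1.34 for T-mDCs (SD, n = 3), so N-mDCs held 1.98 times the Lmo2 of T-mDCs and the groups did not overlap. The log2 difference was -0.95 with a standard error of 0.56 and a limma adjusted p of 0.430 with all libraries in the fit. With the 6 mature libraries alone it was -0.95 with a standard error of 0.12 (95% interval -1.24 to -0.67, limma adjusted p = 0.0135), and without T-DC library 1 the limma adjusted p was 0.0121. With the 6 mature libraries and T-mDC libraries 2 and 3 counted as 1 sample the limma adjusted p was 0.0895, so the call rests on those libraries being separate samples. Over 21 alternatives the limma adjusted p of Lmo2 ran from 0.0121 to 0.719, past the threshold in 3, with a lower level in T-mDCs in each.

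Ldb1 was the other member whose T-mDC libraries all lay below all N-mDC libraries, at 23.1 ± 0.549 FPKM against 32.6 ± 4.80 FPKM (SD, n = 3), where 15.7% of all genes had such a gap. Its log2 difference of -0.47 did not pass the test with all libraries (limma adjusted p = 0.419) or with the 6 mature libraries (limma adjusted p = 0.0988), and over 21 alternatives the limma adjusted p ran from 0.0988 to 0.730. Zfpm1 likewise did not pass with the 6 mature libraries (limma adjusted p = 0.114, range 0.0875 to 0.906 over 21 alternatives). The remaining differences, T-mDCs against N-mDCs, were -1.01 for Zfpm1, -0.75 for Nfe2, -0.46 for Klf1, -0.46 for Tal1, -0.44 for Gata1 and 0.34 for Gfi1b, with limma adjusted p from 0.646 to 0.906.

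**Figure D3:**
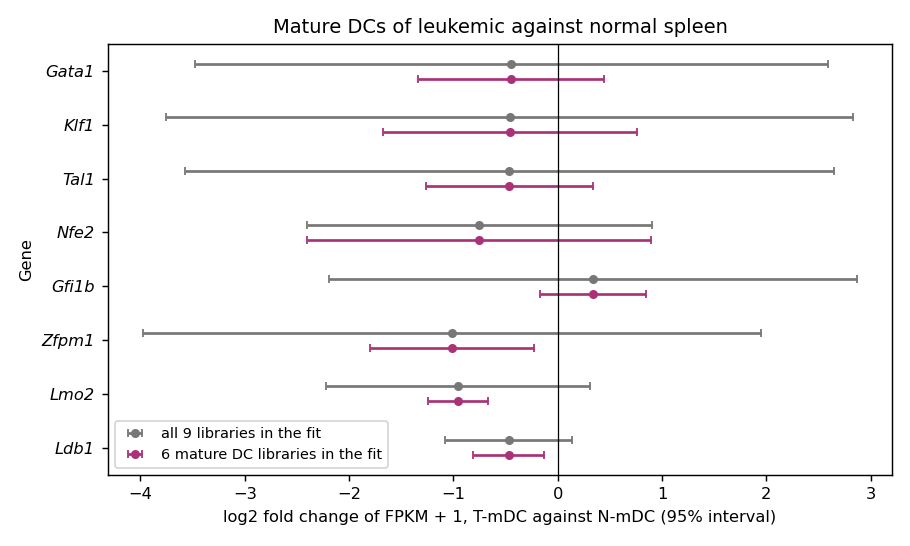
Log2 difference of FPKM + 1 between T-mDCs and N-mDCs on the horizontal axis for the 8 members tested, with bars as 95% intervals from limma, in grey with all 9 libraries in the fit and in purple with the 6 mature cDC libraries. The points of each gene coincide at values from -1.01 for Zfpm1 to 0.34 for Gfi1b, and with the 6 mature libraries the unadjusted bars of Zfpm1, Lmo2 and Ldb1 lie below 0.

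Target genes of the circuit were taken from a list of 47 genes of the red cell, of which 46 were in the values and 39 passed the filter, 2 of them (Ank1 and Trim58) through T-DC libraries only. Rhag, at 1.70 FPKM in N-mDC library 2 and 1.18 FPKM in T-mDC library 1 but under 1 FPKM in the other mature libraries, also needed its T-DC libraries to pass. Other genes of that kind were not counted, and the calls below include such genes. The list was chosen with the red cell RNA of these libraries known, so its counts are a description and not independent evidence of a direction. Against T-mDCs, 27 of the 39 were higher in T-DCs, where 5.44% of all genes were, and none was lower. Against N-mDCs, 10 of the 39 were higher (Car1, Cat, Cpox, Epb42, Ermap, Fech, Kel, Rhag, Slc25a38 and Trim58), where 6.10% of all genes were, and none was lower. The 39 log2 differences were all above 0 in both comparisons, which share the T-DC libraries, with a median of 4.29 against T-mDCs and 3.95 against N-mDCs beside 0.07 and 0.05 over all genes. Since no difference lay below 0, the unadjusted count of lower genes was also 0, in limma voom too. Between T-mDCs and N-mDCs none of the 39 differed in limma or limma voom, with 1 lower at an unadjusted p under 0.05 in each.

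By role, the 4 globin genes tested were all higher in T-DCs than in T-mDCs in limma, and 2 of 4 in limma voom. Against N-mDCs none passed in either tool, with 1 in limma and 2 in limma voom at an unadjusted p under 0.05. Hbb-bs, an adult beta-globin gene, was at 255.0, 24936 and 16304 FPKM in T-DCs, 47.1, 2446 and 240.0 FPKM among N-mDCs and 81.2, 9.97 and 6.37 FPKM in T-mDCs. N-mDC library 2 thus held more than T-DC library 1, and the groups overlapped. Hba-a1, an adult alpha-globin gene, was at 222.4, 20160 and 15834 FPKM in T-DCs and at 8.22 and 5.49 FPKM in T-mDC libraries 2 and 3. Each of these globin genes has a near-identical copy, so the share of reads between copies is uncertain.

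Heme synthesis genes were higher against T-mDCs in 4 of 9 and against N-mDCs in 3 of 9, with the same counts in limma voom. Alas2 was at 10.2, 1080 and 477.8 FPKM in T-DCs, 1.06, 45.5 and 5.55 FPKM among N-mDCs and 2.40, 0.151 and 0.204 FPKM in T-mDCs. Fech, which inserts the iron of heme, was at 22.8, 531.3 and 368.9 FPKM in T-DCs, above all N-mDC libraries (10.01 to 13.9 FPKM) and all T-mDC libraries (9.36 to 15.6 FPKM), with log2 differences of 3.76 and 3.72 (limma adjusted p = 0.0344 and 0.0389). Both Fech calls were lost without any 1 of the N-mDC libraries, T-DC library 2 or 3, or T-mDC library 2 or 3.

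Membrane and skeleton genes were higher against T-mDCs in 11 of 12 and against N-mDCs in 4 of 12, but in 2 and 1 of 12 in limma voom. Slc4a1 was at 21.3, 1878 and 1304 FPKM in T-DCs and at no more than 25.7 FPKM elsewhere, and Aqp1, the water channel, at 8.44, 767.2 and 677.3 FPKM and at no more than 11.5 FPKM elsewhere. Both passed against T-mDCs (limma adjusted p = 0.0227 and 0.0297), calls lost without T-DC library 2 or 3 or T-mDC library 2 or 3. The Aqp1 call was also lost without N-mDC library 3 and in limma voom. N-mDC library 2 held more of each than T-DC library 1. Of the receptor and iron genes, 2 of 4 were higher against T-mDCs in limma (Epor and Steap3) and 2 of 4 in limma voom, but not the same 2. Against N-mDCs none passed in either tool, with 4 at an unadjusted p under 0.05 in each. Tfrc, the transferrin receptor, was at 20.7, 532.4 and 272.8 FPKM in T-DCs and Slc25a37, the mitochondrial iron importer, at 15.9, 564.6 and 353.0 FPKM. Neither passed in limma in either comparison, although limma voom called Slc25a37 higher against T-mDCs. T-DC library 1 was near the mature libraries for both. Other red cell genes were higher in 6 and 3 of 10, but in 1 and 1 of 10 in limma voom. Car2, a carbonic anhydrase, at 19.2, 1787 and 1104 FPKM, and Prdx2, a peroxidase, at 44.8, 578.7 and 470.3 FPKM in T-DCs passed in neither.

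The target counts turn on single libraries. Without T-DC library 1, 39 genes were called against N-mDCs and 38 against T-mDCs, and without T-DC library 2 or 3 there were 0 and 1 in each comparison. Against N-mDCs, leaving out N-mDC library 1, 2 or 3 gave 1, 2 or 0 calls, and leaving out T-mDC library 1, 2 or 3 gave 5, 3 or 3. Against T-mDCs the same steps gave 14, 15 or 3 calls without an N-mDC library and 13, 0 or 0 without a T-mDC library. With the compared groups alone in the fit the counts were 0 and 1, and limma voom gave 5 and 11. The 8 erythroid markers summed to 535.5 to 49546 FPKM in T-DCs, 90.1 to 4723 FPKM among N-mDCs and 14.5 to 161.6 FPKM among T-mDCs, with none at 0 in any library.

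**Figure D4:**
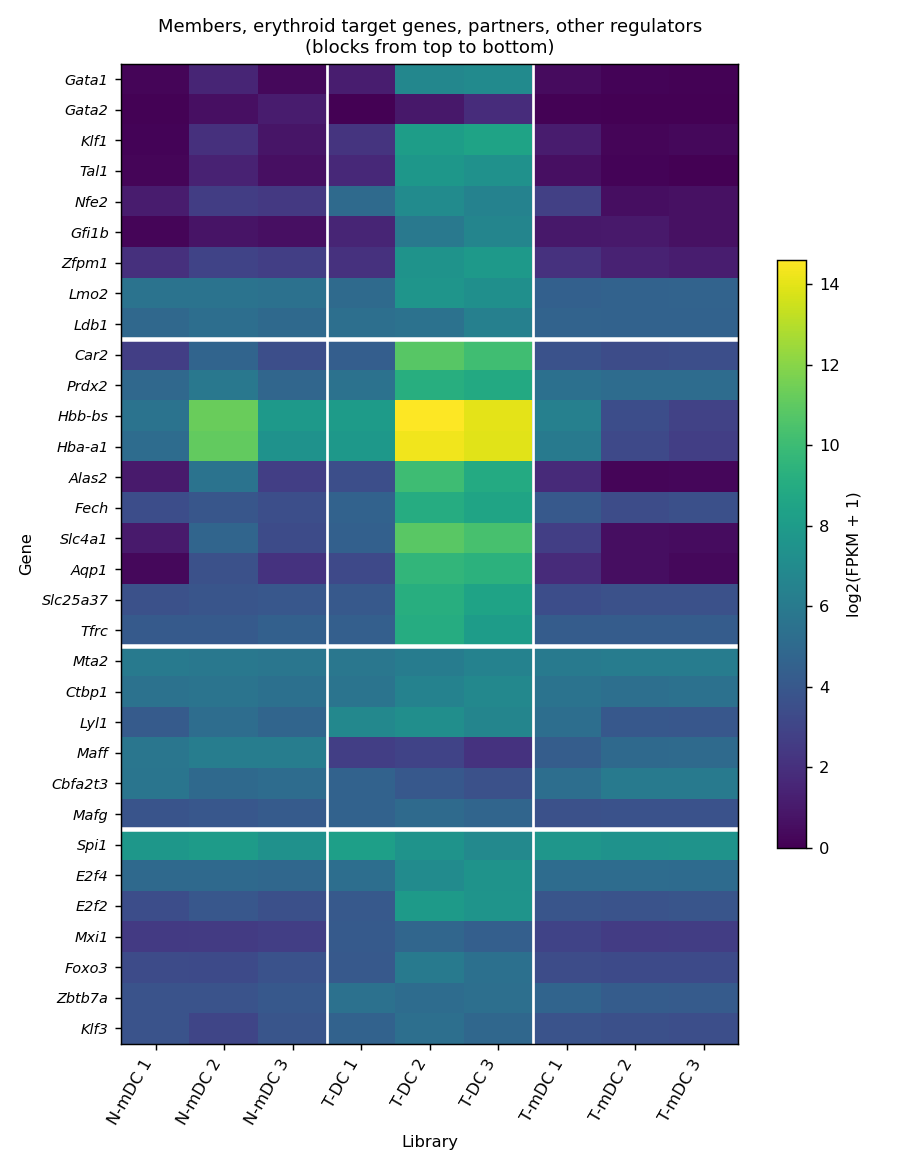
Heat map of log2(FPKM + 1) in the 9 libraries, as columns, for the 9 members and the genes named from the target, partner and regulator lists, as rows in 4 blocks. T-DC libraries 2 and 3 are brightest for Hbb-bs and Hba-a1, and Maff is darker in all T-DC libraries than in all mature libraries.

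Partners of the members did not move as a block. Of 28 listed genes, 26 were tested, and against N-mDCs 2 were higher (Lyl1 and Mafg) and 2 lower (Cbfa2t3 and Maff) in T-DCs, where 6.10% and 10.3% of all genes were. Against T-mDCs 3 were higher (those and Nfe2l2) and 2 lower (Cbfa2t3 and Maff), where 5.44% and 8.79% were. The median log2 difference was 0.23 and 0.05, close to the 0.05 and 0.07 of all genes. Without T-DC library 1 the counts were 11 and 10 of 26, without T-DC library 2 they were 2 and 4, and without N-mDC library 1 the first was 2. Without T-mDC library 2 or 3 the second was 3.

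Lyl1, which can stand in for Tal1 in the Lmo2 complex, averaged 118.7 ± 24.7 FPKM in T-DCs, against 26.7 ± 9.94 for N-mDCs and 22.4 ± 12.7 for T-mDCs (SD, n = 3). It was higher in T-DCs by 2.16 and 2.47 on the log2 scale, N-mDCs named first, (limma adjusted p = 0.0092 and 0.0058), and 19 of 20 alternatives kept either call, the exception being T-DC library 1 alone. Maff, a small Maf that can pair with Nfe2, went the other way, averaging 5.21 ± 1.63 FPKM in T-DCs, against 66.1 ± 11.9 for N-mDCs and 27.4 ± 7.39 for T-mDCs (SD, n = 3). Its log2 differences of -3.45 and -2.19 passed in all 20 alternatives, in 1 of which T-DC library 1 stood alone and was assumed to vary like the mature libraries. Mafg, another small Maf, was higher in T-DCs, by 0.83 and 1.14, and Cbfa2t3 (ETO2), a corepressor of the Tal1 complex, was lower, at -1.20 and -1.66 (limma adjusted p = 0.0353 and 0.0116). The Mafg calls held in 15 and 19 of 20 alternatives and the Cbfa2t3 calls in 7 and 16. The first Mafg call was lost without N-mDC library 1 or T-DC library 2, and the first Cbfa2t3 call without any single library other than T-DC library 1 and T-mDC library 1. The second Cbfa2t3 call was lost without T-mDC library 2 or 3. Mta2 and Ctbp1, corepressor subunits that Zfpm1 can bring in, passed in neither comparison, Mta2 at 0.26 and 0.05 (the latter below 0 with TPM, quantile normalization or voom) and Ctbp1 at 0.80 and 0.85. Nfe2l2 (NRF2), a relative of Nfe2, was lower in T-mDCs than in N-mDCs, where 1.52% of all genes were, with a log2 difference of -1.18 (limma adjusted p = 0.0441), a call that held in 6 of 21 alternatives. It was named after its values were seen.

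Among 16 other regulators of red cell development, 13 were tested. Against N-mDCs 5 were higher in T-DCs (E2f4, Foxo3, Klf3, Mxi1 and Zbtb7a), where 6.10% of all genes were, against T-mDCs 4 were (the same without E2f4), where 5.44% were, and none was lower in limma. At an unadjusted p under 0.05 the lower genes numbered 0 and 1, and limma voom called 0 and 1 lower. Mxi1, a Max partner, averaged 21.6 FPKM in T-DCs, against 5.03 for N-mDCs and 5.63 for T-mDCs, with log2 differences of 1.88 and 1.75 (limma adjusted p = 0.0015 and 0.0021) that passed in all 20 alternatives, the same assumption holding for T-DC library 1 alone. Zbtb7a (LRF), a repressor of fetal globin, differed by 1.47 and 0.94, Klf3, a repressor that binds CACCC sites, by 1.38 and 1.32, and Foxo3, a stress-response factor, by 1.71 and 1.83. Over 20 alternatives these calls held in 20 and 15 for Zbtb7a, 19 and 14 for Klf3 and 12 and 12 for Foxo3. Without T-DC library 2 or 3 both Foxo3 calls were lost, as was the first without N-mDC library 1, 2 or 3 and the second without T-mDC library 2 or 3. The second call of Klf3 and of Zbtb7a was also lost without T-mDC library 2 or 3, and that of Klf3 without T-DC library 2. E2f4, a cell cycle factor, at 1.64 against N-mDCs (limma adjusted p = 0.0499), kept its call in 5 of 20 alternatives. E2f2 did not pass, at 2.87 and 2.71 (limma adjusted p = 0.0531 and 0.0683). Spi1 (PU.1), the myeloid factor that opposes Gata1, differed by -0.16 and -0.01 and did not pass. Counts against N-mDCs were 8 of 13 without T-DC library 1 and 3 without T-DC library 2 or 3 or N-mDC library 1, 2 or 3. Counts against T-mDCs were 7 without T-DC library 1, 2 without T-DC library 2 and 1 without T-mDC library 2 or 3.

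Patterns most like those of the members were sought by Pearson's r of log2(FPKM + 1) over the 9 libraries, as a description, because all points share the same libraries and the spread in red cell RNA. Klf1 was nearest to Ermap (r = 0.999), Apol11b and Pck2, Tal1 to Epb42 (0.999), Btnl10 and Ermap, and Gata1 to Sppl2b (0.999), Slc38a5 and Apol11b. Gfi1b was nearest to 2310022B05Rik (0.997), E2f4 and Cpox, and Zfpm1 to Tnk2 (0.997), Dapk2 and Fam213a. Nfe2 was nearest to Mpp1 (0.998), Ighv1-11 and Grina. Lmo2 was nearest to Isg20 (0.990), Dnajb4 and Vopp1, Ldb1 to Tmem41a (0.988), Zfp692 and Svbp, and Gata2 to F2r (0.981), Tmem201 and Gm6548. Among members, r was 0.996 between Gata1 and Klf1, 0.997 between Gata1 and Tal1, and 0.642 between Gata2 and Nfe2, the lowest pair.

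RNA of cell type markers was also compared between T-DCs and mature cDCs, and not every list differed. Of 8 dendritic cell markers, 6 were lower in T-DCs in both comparisons (Cd209a, Clec9a, Flt3, H2-Aa, Xcr1 and Zbtb46). The summed level was 236.9 to 951.2 FPKM in T-DCs against 2413 to 4729 FPKM in mature cDCs. Most of the mature sums was the MHCII gene H2-Aa, at 1869 to 4067 FPKM against 81.0 to 356.0 FPKM in T-DCs. Low MHCII was part of the sort, so the gap between the sums was largely set by it. Sirpa of the same list went the other way in T-DC library 1, at 404.2 FPKM, above all mature libraries. Itgax, which encodes CD11c, was present at 151.6, 90.4 and 43.0 FPKM in T-DC libraries 1, 2 and 3. The 7 neutrophil markers summed to 13.1 to 4232 FPKM in T-DCs, 63.9 to 703.7 FPKM among N-mDCs and 4.97 to 15.6 FPKM among T-mDCs, and were highest in T-DC libraries 2 and 3. Of 9 progenitor markers, which summed to 19.5 to 163.5 FPKM in T-DCs, 76.4 to 123.3 FPKM among N-mDCs and 86.1 to 126.3 FPKM among T-mDCs, Mpo was at 46.0 and 18.2 FPKM in T-DC libraries 2 and 3 and at 0.0489 FPKM in T-DC library 1, while Flt3 and Kit of the same list were lower in T-DCs in both comparisons and none was called higher. The 12 mast cell and basophil markers summed to 3.48 to 30.9, 32.1 to 47.5 and 22.1 to 35.9 FPKM in the T-DC, N-mDC and T-mDC libraries. Kit made most of each sum except in T-DC libraries 2 and 3, where it was 5.97 of 16.8 and 12.6 of 30.9 FPKM. The 12 T-lineage markers summed to 22.9 to 71.5, 133.0 to 152.2 and 62.9 to 119.6 FPKM, the 6 B cell markers to 31.3 to 89.1, 209.3 to 283.5 and 49.7 to 180.6 FPKM, and the 7 red pulp macrophage markers to 363.0 to 2088, 1253 to 2022 and 211.0 to 976.3 FPKM, in the same order. The part of these cell types in the members' levels was not tested.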

How the data were processed

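RNA from 9 libraries, 3 per group, was sequenced commercially. The authors deposited FPKM per gene on mm10, as the submitters' notes give it. The aligner, counter, annotation and test are not given in the sources used here. Samples were grouped by their labels, and the members and lists were chosen with earlier results of these data known. Genes with at least 1 FPKM in at least 3 libraries (12746) were tested on log2(FPKM + 1) with limma 3.58.1 in R 4.3.3, all libraries in 1 fit, eBayes with trend and p-values adjusted by Benjamini-Hochberg at 0.05. The procedure was tested on simulated data. Alternatives were another pseudocount, filter or scaling, a fit of the compared groups, voom on recovered reads, a replicate block, T-mDC libraries 2 and 3 as 1 sample and leaving out each library. T-DC library 1 alone, and the mature groups with T-mDC libraries 2 and 3 as 1 sample, were chosen after seeing the data. Named genes were all members, the 2 most abundant targets of each role, and of partners and regulators the 3 most abundant and up to 5 called in both T-DC comparisons. Positions are GRCm38, from RefSeq GRCm38.p6 promoters. Floors cover counting error only. The study's single-cell data, flow cytometry and qRT-PCR were not analysed here. One marker is not reported here.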

Additional observations from a re-analysis of the deposited data

How the results depend on the processing

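The choice of members used their T-DC levels, so their T-DC differences are no test of stability. In both comparisons 4 of the 4 members that passed a filter of 5 FPKM and 6 of 8 with T-DC library 1 alone lay above 0. Target calls, 10 against N-mDCs and 27 against T-mDCs, were 0 and 2 without a filter, 0 and 1 with the compared groups alone or with T-DC library 1 alone, 3 and 0 with T-mDC libraries 2 and 3 as 1 sample, 5 and 11 with voom, and, against N-mDCs, 6 with the stricter filter. Partner calls against N-mDCs, 4, were 2 with TPM, 2 with the compared groups and 1 with T-DC library 1 alone, and against T-mDCs, 5, were 3 with T-mDC libraries 2 and 3 as 1 sample and 1 with T-DC library 1 alone. Regulator calls against N-mDCs, 5, were 3 without a filter, 3 with the compared groups and 2 with T-DC library 1 alone, and against T-mDCs, 4, were 1 with T-mDC libraries 2 and 3 as 1 sample and 2 with T-DC library 1 alone. Leaving out 1 library gave 0 to 39 and 0 to 38 target calls, 2 to 11 and 3 to 10 partner calls, 3 to 8 and 1 to 7 regulator calls and 0 to 1 member calls between mature groups. Member calls between mature groups were 1, Lmo2, with the compared groups and 1 with T-DC library 1 alone.

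Replicate numbers did not pair the libraries, since same-numbered deviations correlated from -0.47 to 0.27. A replicate block gave 5 and 18 target calls, 3 and 4 partner calls and 4 and 4 regulator calls, and no member call between mature groups.

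Signs turned in single genes. Klf1 between mature groups ran from -0.90 to 0.056 with 1 library left out, and was above 0 without N-mDC library 2. With T-DC library 1 alone, the difference from N-mDCs was -0.46 for Zfpm1, -0.46 for Lmo2, -0.094 for Hba-a1, -0.25 for Hbb-bs, -0.099 for Mta2 and 0.57 for Spi1, and from T-mDCs -0.31 for Mta2 and 0.72 for Spi1. Mta2 against T-mDCs was -0.28 with TPM, -0.20 with quantile normalization and -0.092 with voom, and ran from -0.12 to 0.23 with 1 library left out. Spi1 ran from -0.52 to 0.18 and from -0.37 to 0.33 with 1 library left out. The causes were not tested. TPM moved the median of all genes from 0.07 to -0.23 between T-DCs and T-mDCs and from 0.03 to 0.23 between T-mDCs and N-mDCs, where Lmo2 stood at -0.76, and voom moved them to -0.07 and 0.13. Depth limits Gata1, Klf1 and Tal1 in T-mDC libraries 2 and 3, which rest on 3 to 9 reads, and in N-mDC library 1, which rests on 5, 2 and 11 reads.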
